A study of Danio rerio with 6 samples.

Results

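The genes described here encode the enzymes that make, convert and break down phosphoinositides, the phosphorylated forms of the membrane lipid phosphatidylinositol, together with the AKT kinases that respond to these lipids. They were chosen by a list of symbol starts, among them pik3, pip4k, pip5k, pi4k, inpp, mtmr, akt with a digit, and plcb, plcd or plcg with a digit. The whole list gave 74 of the 29095 gene symbols in the count tables. RNA had been sequenced from the ALL tissue (acute lymphoblastic leukaemia, which arises from immature B or T lymphocytes) of CG2 zebrafish. Cells of 3 tumours, numbered 1404, 1279 and 1314, had been separated by flow cytometry into a side population (SP), by convention the cells that pump out a DNA-binding dye, and a non-side population (nonSP) that keeps it. With 1 library for each fraction of each tumour, n = 3 in each fraction and the comparison is made within a tumour. The labels name no treatment, and the sources used here do not give the age of the fish, the oncogene behind the tumours or whether the tumours arose independently, so p-values concern these 3 pairs alone.

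Phosphoinositide signalling runs as a chain of lipid conversions. PI 4-kinases add a phosphate to phosphatidylinositol to make PI4P, and type I PIP kinases turn PI4P into PIP2, the main phosphoinositide of the plasma membrane. Below antigen and cytokine receptors of lymphocytes PIP2 has competing fates: class I PI3K phosphorylates it to PIP3, which recruits AKT and promotes survival and growth, while phospholipase C cuts it into diacylglycerol and IP3, which opens calcium stores. SHIP and other inositol polyphosphate phosphatases remove phosphates from these lipids, and myotubularins act on PI3P in endosomes and autophagy.

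More of these genes rose than fell in SP. Of the 74 members, 66 had enough counts to be tested, 16 rose and 3 fell, and 47 did not pass. Those that rose were spread along the chain and included 3 PI 4-kinase genes, 3 type I PIP kinase genes, the PI3K genes pik3ca, pik3cd and pik3r3a, the phosphatase genes inpp5f and inpp5ja, 3 myotubularin genes and plcd4b. Those that fell were plcg2, akt2l and pip5kl1. The calls come from edgeR's quasi-likelihood test blocked by tumour, with p-values adjusted by Benjamini-Hochberg and a threshold of 0.05, over all 15770 tested genes. Among all tested genes 13% rose, 9.4% fell and 22.4% were called in either direction, while of the tested members 24.2% rose and 4.55% fell. The counts called in each class below are to be read beside these shares of all tested genes. No class was tested as a set. The median log2 fold change (SP minus nonSP) was 0.35 over the 66 tested members and 0.09 over all tested genes. The 8 members not tested were pik3r5, pik3r6, pip5k1ba, inpp5kb, mtmr7a, plcd1a, plcd1b and plcd3b, which had totals of 8 to 163 counts over the 6 libraries.

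**Figure D1:**
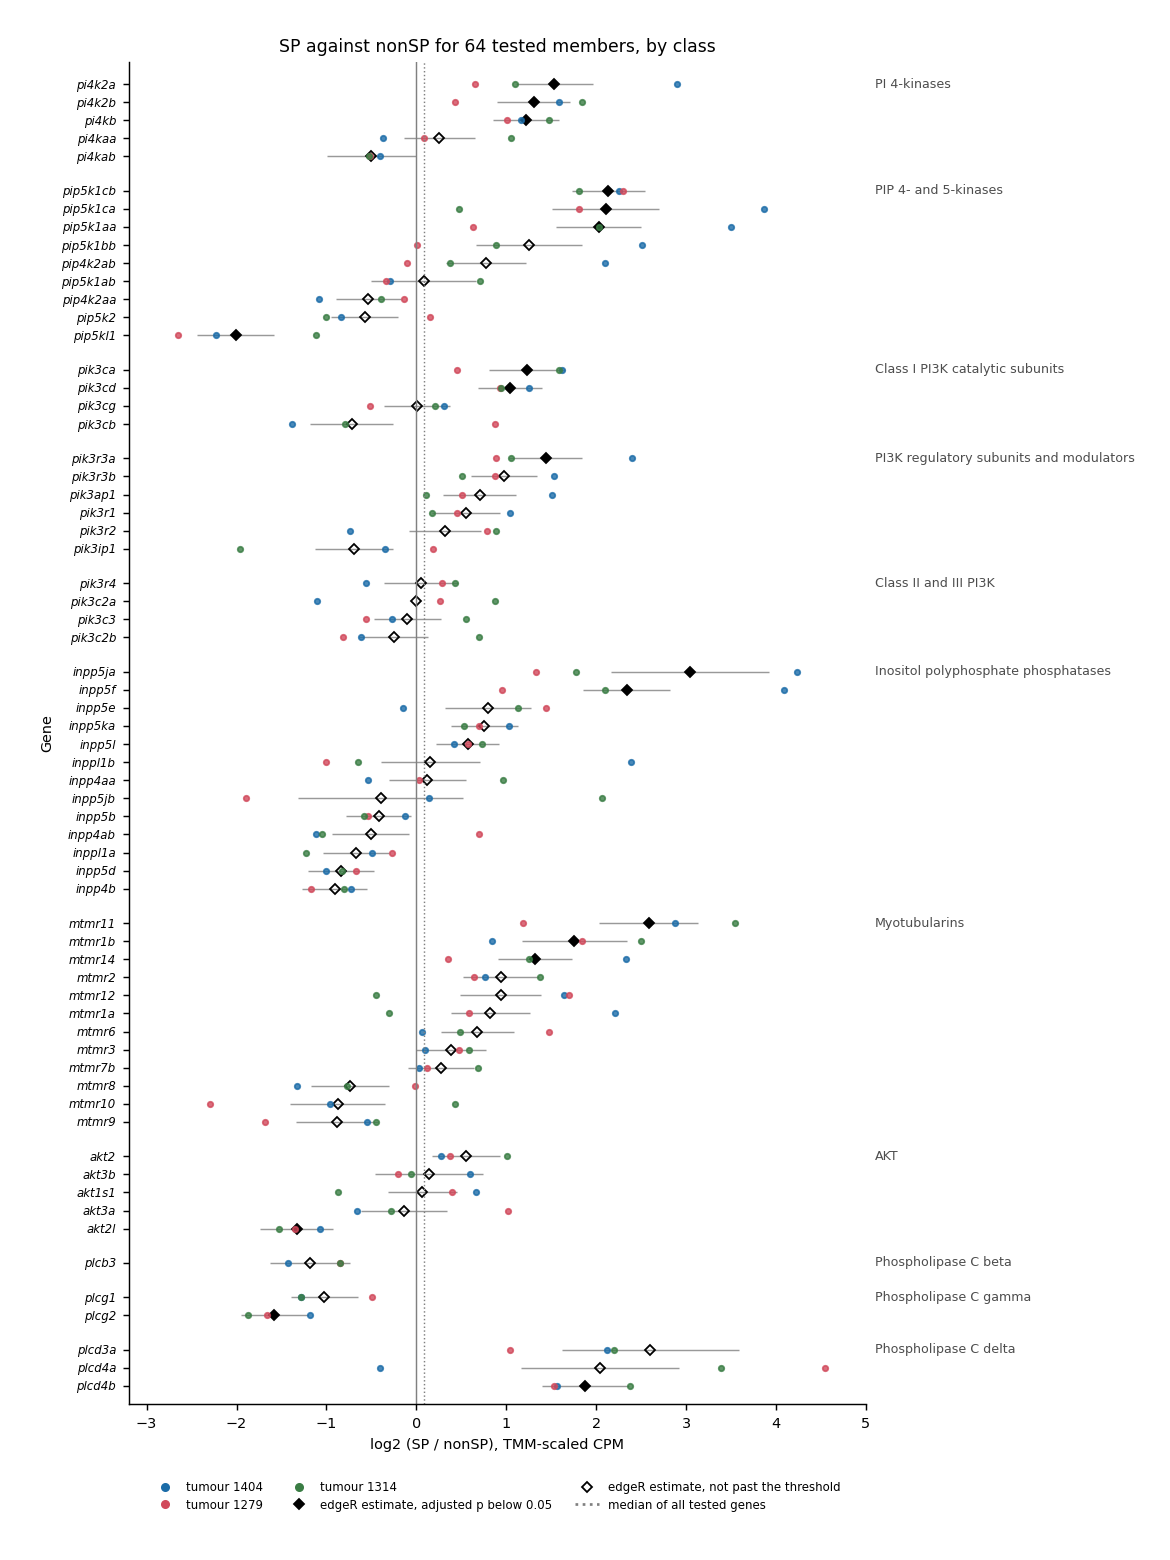
Log2 ratio of SP to nonSP (x axis) for 64 tested members (y axis, grouped by class). Coloured points are the 3 tumours, diamonds with bars are the edgeR estimate and its standard error (no bar for pik3c2a, whose estimate was 0), and filled diamonds mark 15 members that rose and 3 that fell. PI 4-kinase genes lie mostly to the right and the phospholipase C gamma genes to the left.

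Library totals ran from 30213658 to 62398607 counts, and the members together took 0.163%, 0.184% and 0.14% of the counts in SP of tumours 1404, 1279 and 1314 against 0.0709%, 0.0642% and 0.0827% in nonSP. This order of tumours is kept below, and levels are in CPM, the standard depth-scaled count, with TMM (trimmed mean of M-values) scaling factors. These were 1.21 to 1.76 in SP and 0.587 to 0.817 in nonSP, so the scaling bears on direction. With library totals in place of TMM factors the median of all tested genes moved by 1.07 on the log2 scale. Then 43 members were called higher (65.2% of those tested) and 0 lower, against 50.8% and 1.76% of all tested genes. The members' median stood 0.27 above that of all genes with TMM and 0.28 above it with library totals. Without the tumour block edgeR called 0 of all 15770 tested genes, and so 0 members. At an unadjusted edgeR p below 0.05 stood 7 of the 66 tested members and 1251 of the 15770 genes. In bulk libraries, fewer cells of a type and less RNA per cell cannot be told apart. Of lists of other cell types that the gate could hold, muscle markers had 2 of 4 tested genes higher in SP, neb and ttna. The list summed to 36.1 to 73.7 CPM in SP against 3.59 to 29.7 CPM in nonSP, most of it from neb and ttna. Of its tested genes without a call, myhz2 was higher and acta1b lower in SP in all 3 tumours. Of its untested genes, ttnb had 6, 8 and 27 counts in SP and 0 in each nonSP library. mylpfa, with no more than 9 counts in any library, was lower in SP in all 3 tumours. tnnt3a and ckma had no more than 2 counts in any library. Fibroblast markers had 2 of 3 tested genes higher, lum and dcn, and the list summed to 8.89 to 27.2 CPM in SP against 4.63 to 5.33 CPM in nonSP. The collagen gene col1a1b had a log2 fold change of 0.18 and did not pass. Few counts left col1a1a, col1a2, col5a1 and pdgfra untested. Neutrophil markers had 2 of 7 tested genes higher and 1 lower, with overlapping sums of 41.8 to 729 CPM and 70.0 to 398 CPM. Lists for macrophages (0 of 2 tested genes called), thrombocytes (0 of 3, with itga2b and mpl at 0), endothelium (0 of 1) and kidney epithelium (0 of 2) held no call, and that for erythroid cells held 1 of 3. Their part in the changes below was not tested.

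Part of the PI 4-kinase genes, at the head of the chain, rose in SP. Of 5 PI 4-kinase genes, all tested, 3 rose and 0 fell, and their summed level was higher in SP in each tumour, at 118, 135 and 61.1 CPM against 36.5, 80.1 and 24.4 CPM in nonSP. pi4kb, which makes PI4P at the Golgi, stood at 14.7, 37.9 and 10.9 CPM in nonSP and at 32.9, 76.3 and 30.3 CPM in SP. Its SP value was higher in every tumour, by similar log2 ratios of 1.16, 1.01 and 1.48, although the fractions overlapped because nonSP of tumour 1279 lay above SP of the other tumours. The estimated log2 fold change was 1.22 ± 0.37 (the model's standard error with n = 3 pairs, as after every ± below), or 2.33-fold (edgeR adjusted p = 0.0199). That error leans on dispersion shared between genes and does not measure the spread of the 3 pairs. pi4k2a, a type II kinase of endosomes and the trans-Golgi, went from 8.97, 25.4 and 6.07 CPM to 67.2, 40.1 and 13.1 CPM. That gain was widest in tumour 1404, and the estimate was 1.54 ± 0.43 (edgeR adjusted p = 0.0132). pi4k2b, the second type II enzyme, went from 3.76, 5.30 and 2.71 CPM to 11.3, 7.18 and 9.85 CPM, so that every SP library lay above every nonSP library (1.31 ± 0.41, edgeR adjusted p = 0.0234). The genes of the plasma membrane enzyme did not pass: pi4kaa stood at 0.25 ± 0.39 and pi4kab at -0.50 ± 0.50, with pi4kab lower in SP in all 3 tumours. In edgeR, pi4k2a did not pass without tumour 1404 (0.77, adjusted p = 0.151), pi4k2b without 1404 (1.04, 0.103) or 1314 (1.03, 0.189), and pi4kb without 1279 (1.34, 0.0654) or 1314 (1.09, 0.169).

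**Figure D2:**
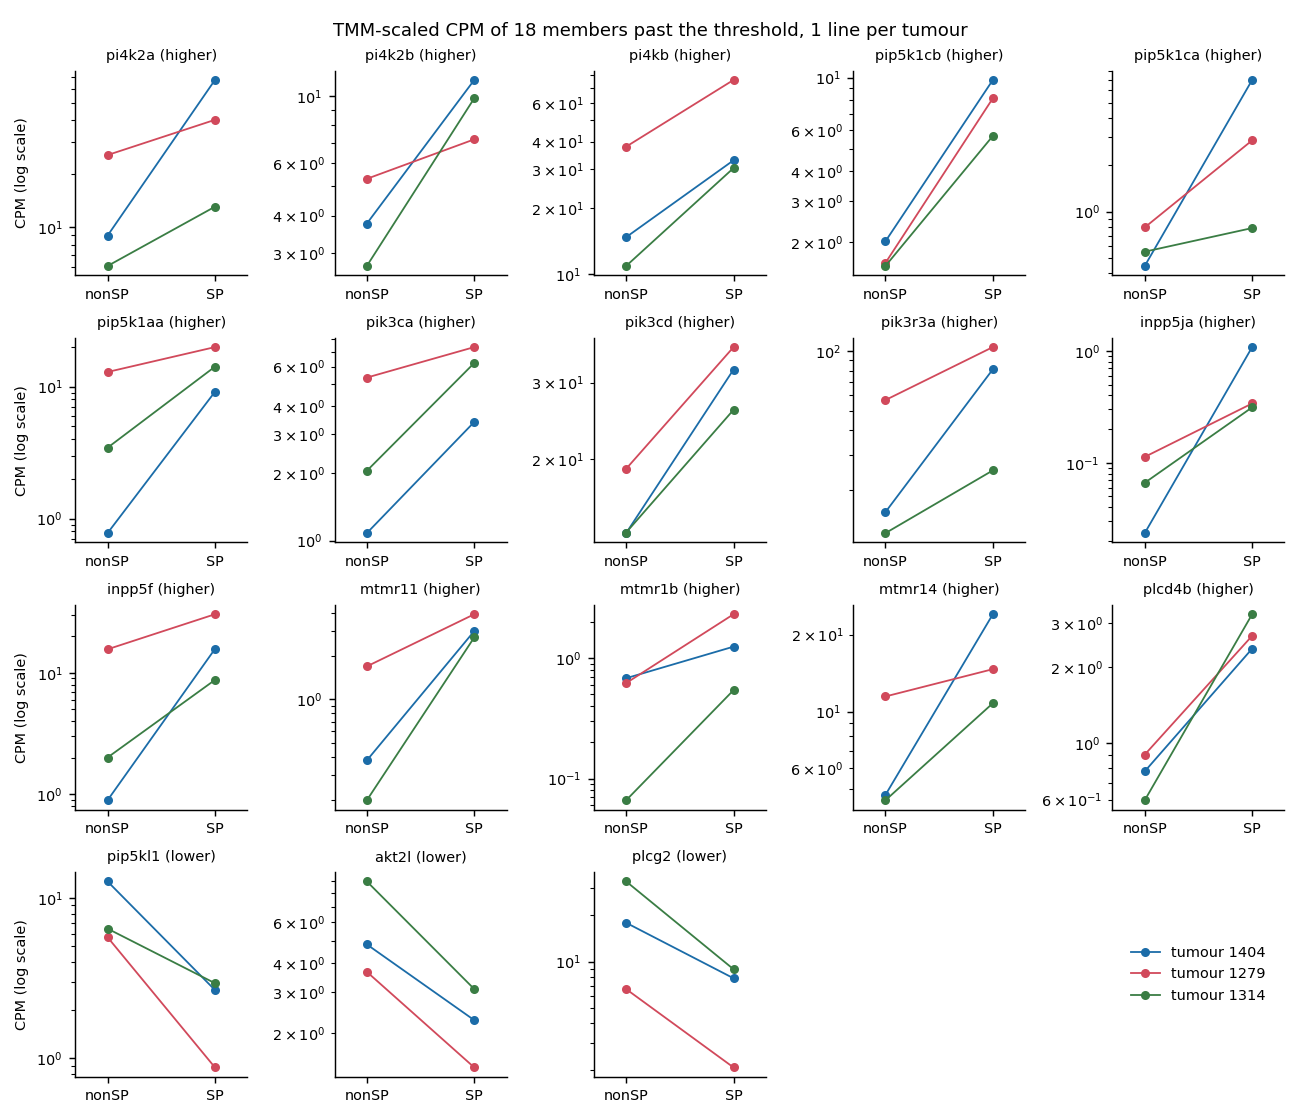
CPM on a log axis (y) in nonSP and SP (x) for 18 members that passed the threshold, with 1 line per tumour. All lines of the first 15 panels point up and those of the last 3 point down, and the slopes of pi4k2a, inpp5f and pip5k1aa are steepest in tumour 1404.

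PIP kinases diverged within the class. Of 10 genes 9 were tested, 3 rose and 1 fell, and all that rose encode type I enzymes, which make PIP2 from PI4P. pip5k1cb stood at 2.02, 1.64 and 1.59 CPM in nonSP and at 9.77, 8.17 and 5.66 CPM in SP. The fractions did not overlap (all tested genes: 8.64% with SP above, 6.6% with SP below), and the gain was of like size in the 3 tumours, with a log2 fold change of 2.14 ± 0.41, or 4.4-fold (edgeR adjusted p = 0.000875). pip5k1aa went from 0.775, 12.9 and 3.44 CPM up to 9.15, 19.96 and 14.2 CPM and rose by 2.03 ± 0.47 (edgeR adjusted p = 0.00393). Here the tumours differed, with log2 ratios of 3.50, 0.63 and 2.03. pip5k1ca rose by 2.10 ± 0.59 (edgeR adjusted p = 0.0137) on low counts of 19, 14 and 25 in nonSP and 473, 186 and 75 in SP. Its call ended without tumour 1404 (1.05, edgeR adjusted p = 0.215) and without 1279 (2.26, 0.0549), while pip5k1cb and pip5k1aa passed with each tumour left out. pip5kl1, a PIP5K-like gene whose mouse product has been described as lacking lipid kinase activity of its own, went the other way, from 12.7, 5.70 and 6.44 CPM for nonSP to 2.67, 0.879 and 2.94 CPM for SP. No SP library reached the lowest nonSP value, and it fell, with a log2 fold change of -2.01 ± 0.43 (edgeR adjusted p = 0.00198), a call that held with each tumour left out and ended with library totals (-0.95, adjusted p = 0.0799). The type II genes pip4k2aa (-0.53 ± 0.36), pip4k2ab (0.77 ± 0.44) and pip5k2 (-0.57 ± 0.37), the last listed in RefSeq as pip4k2ca, did not pass. Nor did the type I genes pip5k1ab (0.08 ± 0.59) and pip5k1bb (1.26 ± 0.59, edgeR adjusted p = 0.123). The summed level of the class stayed close between fractions, at 53.3, 74.3 and 73.5 CPM in SP and 40.9, 65.3 and 91.5 CPM in nonSP, and the class median of 0.77 was -0.54 with the stricter filter.

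Class I PI3K, which turns PIP2 into PIP3, was higher in SP for some of its subunits. Of 4 catalytic genes 2 rose and 0 fell. pik3cd encodes p110-delta, the leukocyte isoform that acts below antigen receptors, and stood at 13.5, 18.96 and 13.5 CPM in nonSP and at 32.2, 36.3 and 26.0 CPM in SP. All SP libraries lay above all nonSP libraries, with nearly equal log2 ratios of 1.25, 0.93 and 0.94 and an estimate of 1.05 ± 0.36, or 2.06-fold (edgeR adjusted p = 0.037). pik3ca, the widely expressed p110-alpha, went from 1.08, 5.36 and 2.05 CPM to 3.40, 7.34 and 6.23 CPM (1.23 ± 0.42, edgeR adjusted p = 0.0377). pik3cg, the leukocyte isoform driven by G protein-coupled receptors, stood at 50.9, 27.4 and 9.13 CPM in nonSP and 63.2, 19.1 and 10.6 CPM in SP. Its log2 fold change was 0.00 ± 0.37 with ratios of 0.31, -0.51 and 0.21, and its sign varied between settings. pik3cb stood at -0.72 ± 0.46 with ratios of mixed sign. Neither rising gene passed in edgeR with any tumour left out: without 1404, 1279 and 1314 pik3cd was 0.83 (adjusted p = 0.11), 1.12 (0.119) and 1.1 (0.146), and pik3ca 0.91 (0.165), 1.64 (0.0602) and 1.04 (0.22). With RLE scaling pik3cd (0.96, 0.0567) and pik3ca (1.15, 0.0554) also missed the threshold in edgeR, as did pik3ca with upper-quartile scaling (1.17, 0.0532).

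Of 8 members that encode PI3K regulatory subunits and modulators 6 were tested, 1 rose and 0 fell. PIK3R6 (2 of 2), under a capital-letter symbol outside the rule, also rose and is described below. pik3r3a, one of the zebrafish copies of the p55-gamma subunit gene, went from 15.4, 56.8 and 12 CPM in nonSP up to 81.3, 105.2 and 25.0 CPM for SP. It was higher in SP in every tumour, most in 1404, and rose by 1.44 ± 0.41 (edgeR adjusted p = 0.0135), a call that ended without tumour 1404 (0.86, adjusted p = 0.0905). Its copy pik3r3b stood at 18.2, 11.7 and 14.6 CPM against 52.5, 21.6 and 20.9 CPM in SP. Its fractions did not overlap, unlike those of pik3r3a, but the estimate of 0.97 ± 0.37 missed the threshold (edgeR adjusted p = 0.058). pik3r3b passed in edgeR without a filter, with the stricter filter and with library totals. In DESeq2, in limma voom and with any tumour left out it did not pass. pik3r1, the gene of the p85-alpha subunit, varied most between tumours of this class, at 129, 76.6 and 18.6 CPM in nonSP and 265, 104.8 and 21.0 CPM in SP (0.56 ± 0.38, edgeR adjusted p = 0.299). pik3ip1, a transmembrane inhibitor of PI3K, stood at 96.99, 42.99 and 143 CPM in nonSP and 75.96, 48.9 and 36.7 CPM in SP. Only tumour 1314 showed a wide gap, with a log2 ratio of -1.96 beside -0.35 and 0.18, and the estimate was -0.69 ± 0.43 (edgeR adjusted p = 0.251). pik3ap1, the adapter BCAP of B cell receptor signalling, stood at 0.70 ± 0.41 and pik3r2 at 0.32 ± 0.40.

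The members of the class II and III PI3K genes, which serve the making of PI3P for endosomes and autophagy, held no call. PIK3C2G, a class II gene under a capital-letter symbol outside the rule, rose and is described below. pik3c2a, pik3c2b, pik3c3 and pik3r4, the last coding for the VPS15 partner of the class III kinase, had log2 fold changes of -0.25 to 0.05. pik3c2b, with the most counts of the class, stood at 59.5, 21.8 and 7.41 CPM in nonSP and 38.8, 12.3 and 12.1 CPM in SP (-0.25 ± 0.39, edgeR adjusted p = 0.678). In each of the 4 genes tumour 1404 had a negative ratio and tumour 1314 a positive ratio, and the class sum was lower in SP of tumours 1404 and 1279, at 53.1 and 71.0 CPM against 82.4 and 102 CPM, and higher in SP of 1314, at 23.3 against 15 CPM.

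Inositol polyphosphate phosphatases held 2 genes that rose, while most did not pass. Of 14 genes 13 were tested, and the 2 that rose are near the 13% of all tested genes that rose. 0 fell, against 9.4% of all tested genes. inpp5f, the gene of the PI4P phosphatase SAC2, stood at 0.893, 15.6 and 2.01 CPM in nonSP and at 15.7, 30.4 and 8.74 CPM in SP. It rose in SP of every tumour, with log2 ratios of 4.09, 0.96 and 2.10 and an estimate of 2.34 ± 0.49, or 5.06-fold (edgeR adjusted p = 0.00178). The call held with each tumour left out, at 1.41 without 1404, 3.12 without 1279 and 2.48 without 1314. inpp5ja, a copy of the gene of the PIP2 5-phosphatase PIPP, was counted 73, 22 and 30 times in SP against 1, 2 and 3 times in nonSP (edgeR adjusted p = 0.0154). The CPM ratio of SP to nonSP was 46.1 in tumour 1404, with an exact 95% binomial interval from 8.01 to 1844. In tumour 1279 it was 3.01 (0.739 to 26.4) and in tumour 1314 4.73 (1.47 to 24.2), intervals that cover counting error only. The call ended without tumour 1404 (edgeR adjusted p = 0.228).

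The other 11 tested genes of the class did not pass. inpp5d, the gene of SHIP1, which removes the 5-phosphate of PIP3 in blood cells, stood at 23.9, 5.75 and 6.31 CPM in nonSP and 11.9, 3.61 and 3.55 CPM in SP. It was lower in SP in 3 of 3 tumours, with an estimate of -0.84 ± 0.37 (edgeR adjusted p = 0.0999, DESeq2 adjusted p = 0.045), and 0.23 with library totals. inpp4b, a PI(3,4)P2 phosphatase gene, stood at -0.91 ± 0.36 (edgeR adjusted p = 0.0709) and was lower in SP in 3 of 3 tumours. It passed in DESeq2, in limma voom and in edgeR without tumour 1404, but not without 1279 or 1314 or with library totals. inppl1a, a SHIP2 gene, stood at -0.67 ± 0.37, while its copy inppl1b stood at 0.16 ± 0.55 and the 4-phosphatase gene inpp4aa at 0.12 ± 0.43. inpp5l, with the most counts of the class, stood at 10.8, 24.4 and 12.8 CPM in nonSP and 14.4, 36.3 and 21.2 CPM in SP (0.57 ± 0.35, edgeR adjusted p = 0.249). The class median was 0.12, and -0.30 without tumour 1404, and the class sums lay close together, at 88.6, 140 and 83.8 CPM in SP and 79.9, 131 and 101 CPM in nonSP.

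**Figure D3:**
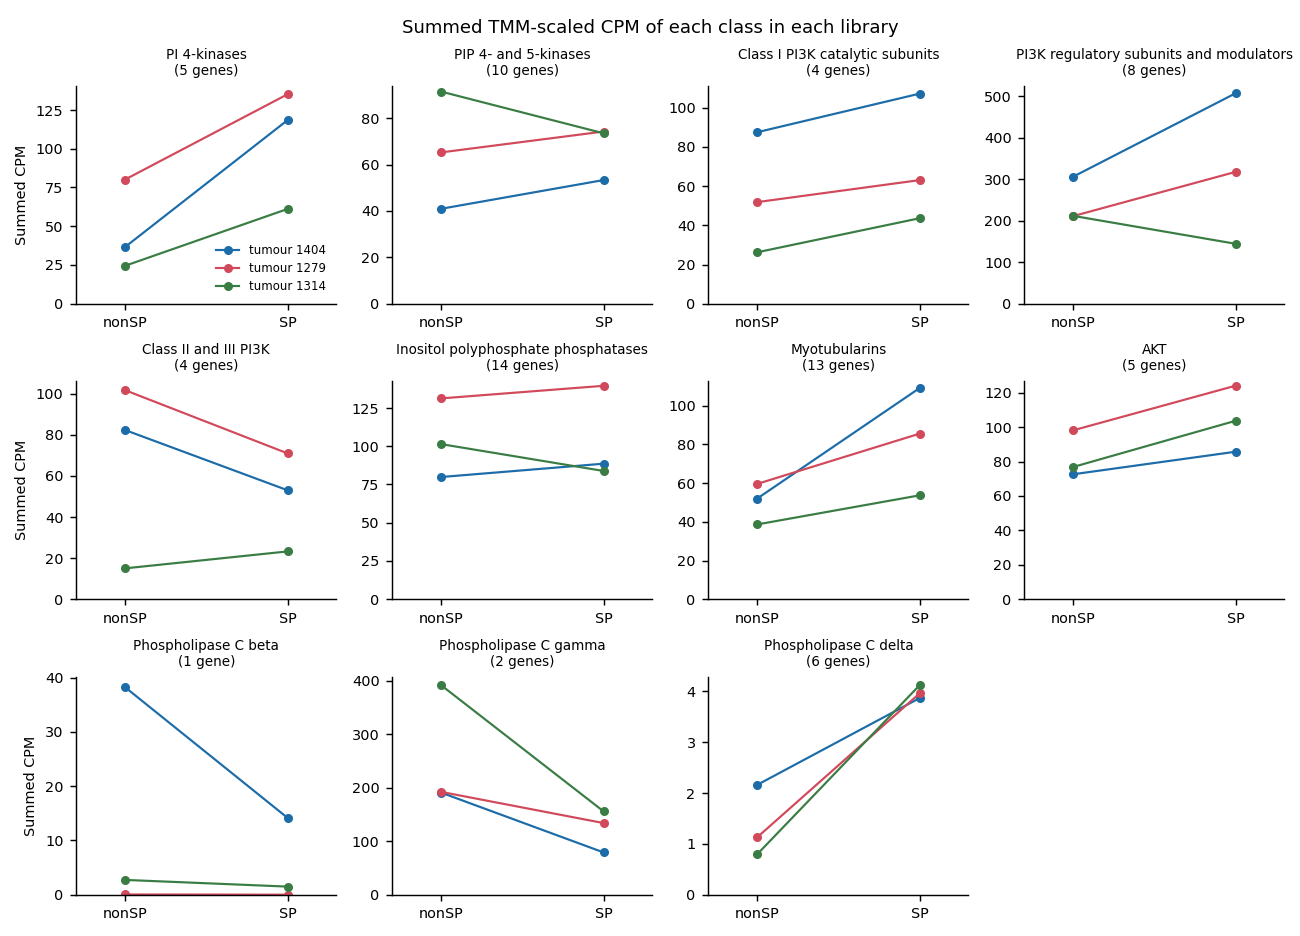
Summed CPM (y axis, starting at 0) of 11 classes in nonSP and SP (x axis), with 1 line per tumour. Sums follow the genes with the most counts, and the AKT sum is mostly akt2, which did not pass. PI 4-kinases, class I catalytic subunits, myotubularins, AKT and phospholipase C delta are higher in SP in every tumour, phospholipase C beta (1 count in each fraction of tumour 1279) and gamma are lower in every tumour, and the other 4 classes move differently in different tumours.

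Myotubularins, the phosphatases of PI3P and PI(3,5)P2 and their inactive relatives, were higher in SP for part of the family. Of 13 genes 12 were tested, 3 rose and 0 fell, and the summed level was 109, 85.6 and 53.7 CPM in SP, compared with 52.0, 59.6 and 38.6 CPM in nonSP. In tumour 1404 these sums held 38.2 CPM in SP and 12.2 CPM in nonSP from mtmr12, which did not pass (edgeR adjusted p = 0.134). mtmr11, whose human counterpart lacks phosphatase activity, stood at 0.376, 1.69 and 0.199 CPM in nonSP and at 2.98, 3.90 and 2.69 CPM in SP. The fractions did not overlap, and it rose by 2.58 ± 0.55, or 6.0-fold (edgeR adjusted p = 0.00193), with the call kept when each tumour was left out. mtmr14, an active phosphatase that acts in autophagy and muscle, went from 4.72, 11.5 and 4.50 CPM to 24.0, 14.6 and 10.8 CPM (1.32 ± 0.41, edgeR adjusted p = 0.0242). Tumour 1279 showed little of this gain, with a log2 ratio of 0.35 beside 2.34 and 1.25. mtmr1b rose by 1.76 ± 0.58 (edgeR adjusted p = 0.0318) on 29, 11 and 3 counts in nonSP and 84, 150 and 52 in SP. In edgeR mtmr14 did not pass without tumour 1404 (0.69, adjusted p = 0.254) or 1314 (1.35, 0.0737), and mtmr1b without 1279 (1.72, 0.137) or 1314 (1.35, 0.196). Among the others, mtmr8, mtmr9 and mtmr10, of which the human counterparts of mtmr9 and mtmr10 are inactive, had estimates of -0.88 to -0.74 and did not pass.

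AKT genes held a single call, a fall of akt2l. akt2, the AKT gene with the most counts, stood at 51.3, 71.9 and 42.6 CPM in nonSP and 62, 93.4 and 85.9 CPM in SP. It was higher in SP in 3 of 3 tumours, with an estimate of 0.55 ± 0.38 that did not pass (edgeR adjusted p = 0.298). akt2l, listed as an akt2-like gene, stood at 4.82, 3.67 and 9.0 CPM in nonSP and at 2.27, 1.42 and 3.09 CPM in SP. No SP library reached the lowest nonSP value, and the log2 ratios of -1.07, -1.35 and -1.53 were alike (-1.33 ± 0.41, edgeR adjusted p = 0.0212). The call ended without tumour 1279 (-1.30, edgeR adjusted p = 0.105) or 1314 (-1.22, 0.151) and with library totals (-0.26, 0.655). akt3a (-0.13 ± 0.48), akt3b (0.14 ± 0.60) and akt1s1 (0.07 ± 0.38), which encodes the AKT substrate PRAS40 and no kinase, did not pass.

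Phospholipase C, which splits PIP2, differed between isoforms: plcg2 fell in SP and plcd4b rose. plcg2, the isoform of B cell receptor signalling, stood at 17.8, 6.66 and 32.9 CPM in nonSP and at 7.81, 2.08 and 8.93 CPM in SP. It was lower in SP in each tumour, with log2 ratios of -1.18, -1.66 and -1.88, and it fell, with an estimate of -1.58 ± 0.37 (edgeR adjusted p = 0.00426, 0.334-fold). The call held with each tumour left out, at -1.89 without 1404, -1.52 without 1279 and -1.42 without 1314, and ended with library totals (-0.51, edgeR adjusted p = 0.296). plcg1, the isoform of T cell receptor signalling, stood at 173, 186 and 359 CPM in nonSP and at 71.4, 132 and 147 CPM in SP. Every SP library lay below every nonSP library, with log2 ratios of -1.28, -0.49 and -1.29, yet the estimate of -1.02 ± 0.37 just missed the threshold (edgeR adjusted p = 0.0506). It passed in DESeq2 (-1.11, adjusted p = 0.0125), in limma voom (-0.97, 0.0311) and in edgeR without tumour 1404 (-1.0, 0.0374), while with library totals it was 0.05 (0.918). In edgeR it also passed with RLE or upper-quartile factors, with TMM factors set without ribosomal protein and mitochondrial genes, and with the stricter filter. It did not pass without tumour 1279 or 1314. plcg1 was the only member with an average log2 CPM above 7, a range in which 43.3% of all tested genes fell and the median log2 fold change was -0.69. plcb3, the isoform driven by G protein-coupled receptors, stood at -1.19 ± 0.45 (edgeR adjusted p = 0.0568) and was all but uncounted in tumour 1279: it had 956, 1 and 144 counts in SP, with 1628, 1 and 124 counts for nonSP. It passed in DESeq2 and in edgeR with RLE factors, upper-quartile factors or the stricter filter. In limma voom and with any tumour left out it did not pass.

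The delta genes had few counts, and only 3 of 6 could be tested. plcd4b went from 33, 16 and 27 counts for nonSP to 160, 173 and 311 for SP, or from 0.775, 0.903 and 0.596 CPM to 2.37, 2.67 and 3.25 CPM. The fractions did not overlap, and it rose by 1.88 ± 0.48, or 3.67-fold (edgeR adjusted p = 0.00788). Without tumour 1314 it no longer passed (1.59, edgeR adjusted p = 0.0912). plcd4a had 63, 52 and 55 counts in SP, with 53, 0 and 1 counts for nonSP (edgeR adjusted p = 0.094), with no excess in SP of tumour 1404. plcd4a passed in DESeq2, in limma voom and in edgeR without a filter, without tumour 1404 or with library totals. With RLE or upper-quartile factors and without tumour 1279 or 1314 it did not pass. plcd3a had 22, 10 and 22 counts in SP, with 2, 1 and 1 counts for nonSP (edgeR adjusted p = 0.0579). Summed over the class, delta genes stood at 3.87, 3.96 and 4.12 CPM in SP, compared with 2.16, 1.13 and 0.794 CPM in nonSP, and gamma genes at 79.2, 134 and 156 CPM against 191, 192 and 392 CPM.

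Levels differed between tumours as well as between fractions. The range between tumours of the mean log2 CPM of both fractions exceeded the size of the log2 fold change in 51 of 66 tested members, with medians of 1.64 and 0.79. These measures are unlike, as a range takes the extremes of 3 tumours and the fold change is an average. The share over all tested genes was not computed, so the count shows nothing particular to the members. Of the 66, 29 (43.9%) were higher in SP in all 3 tumours, against 31.1% of all tested genes. Lower in all 3 were 13 (19.7%), against 24.0% of all tested genes, and 24 had ratios of mixed direction. The widest range was that of plcb3, at 38.2, 0.0564 and 2.74 CPM in nonSP, and the next that of pik3cb, at 22.1, 0.169 and 1.54 CPM. Both were lowest in tumour 1279, as were mtmr12 (12.2, 0.621 and 5.14 CPM in nonSP) and akt3a (5.0, 0.226 and 3.49 CPM). pik3c3 was highest there, at 71.6 CPM in nonSP against 7.70 and 2.82 CPM, as were akt3b, inpp5jb and inpp4aa. The same tumour stood apart in summed lymphocyte markers, though not in each of them. In nonSP the B lymphocyte list summed to 219, 3.95 and 115 CPM and the T lymphocyte list to 120, 669 and 109 CPM. Within the lists, itk of the T lymphocyte markers was highest in tumour 1314 in nonSP, at 5.57, 9.03 and 24.8 CPM. The B lymphocyte marker swap70a was lowest in tumour 1314, at 2.42, 1.13 and 0.243 CPM in nonSP. pax5, a B lineage factor, was counted 1086, 2 and 1486 times in nonSP and 1608, 2 and 1608 times in SP. lck, a T cell kinase, stood at 12.8, 286 and 23.3 CPM in nonSP and 4.24, 237 and 13.3 CPM in SP. Of 8 tested B lymphocyte markers 1 rose and 1 fell in SP, and of 5 tested T lymphocyte markers 1 rose. With 1 tumour of this kind, the marker pattern and the tumour cannot be told apart.

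**Figure D4:**
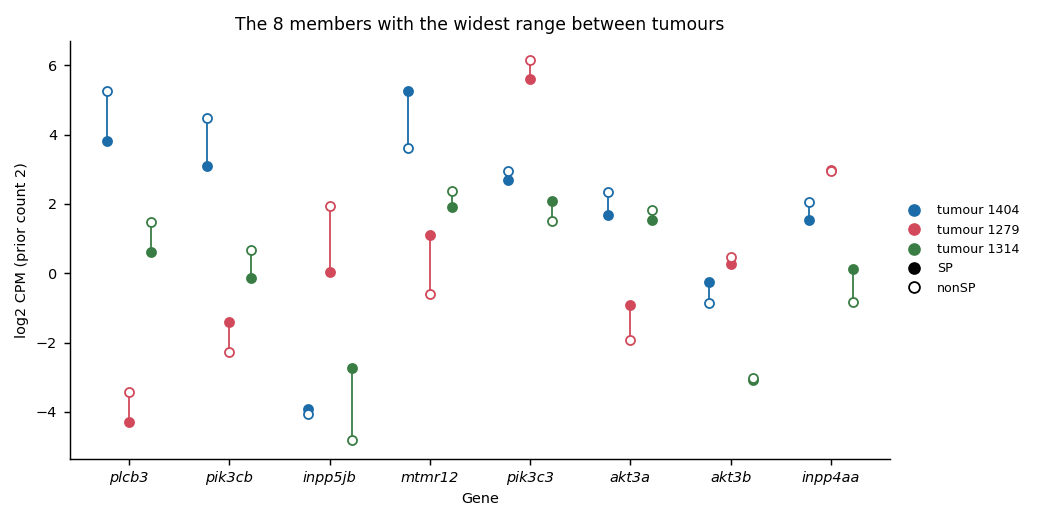
Log2 CPM with a prior count of 2 (y axis) for the 8 members with the widest range between tumours (x axis), with filled points for SP and open points for nonSP of the same tumour. Tumour 1279 is lowest in 4 of the genes and highest in the other 4.

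The size of the change also differed between tumours. Among the 16 members that rose, the log2 ratio was highest in tumour 1404 for 10, in 1314 for 5 and in 1279 for 1, and it was lowest in tumour 1279 for 13. Their median ratio was 2.30, 0.95 and 1.68, a description of genes chosen by the test on the same libraries. Counted in each tumour alone, with no test, a log2 ratio above 1 was found for 25, 13 and 20 of the 66 tested members. These are 37.9%, 19.7% and 30.3%, against 25.8%, 18.7% and 22.9% of all tested genes. A ratio below -1 was found for 11, 8 and 8 members (16.7%, 12.1% and 12.1%), against 18.8%, 12.5% and 19.8% of all tested genes. Among 12 pairs of zebrafish copies with both members tested, the widest gap in log2 fold change was that of inpp5ja over inpp5jb, at 3.44, on few counts. inpp5jb had 64 and 67 counts in SP and nonSP of tumour 1279 and at most 11 in the other libraries (-0.40 ± 0.92, edgeR adjusted p = 0.795). The fitted change of inpp5ja depends on the prior count at its 1 to 3 nonSP counts, and in tumour 1314 the gap had the other direction, at -0.30 beside 4.09 and 3.23. The next pair was pip5k1aa over pip5k1ab, at 1.95. pip5k1ab had 37, 14 and 144 counts in SP, with 29, 5 and 41 counts for nonSP (0.08 ± 0.59, edgeR adjusted p = 0.941). This gap had the same direction in each tumour, at 3.80, 0.96 and 1.32. Neither gap was tested.

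**Figure D5:**
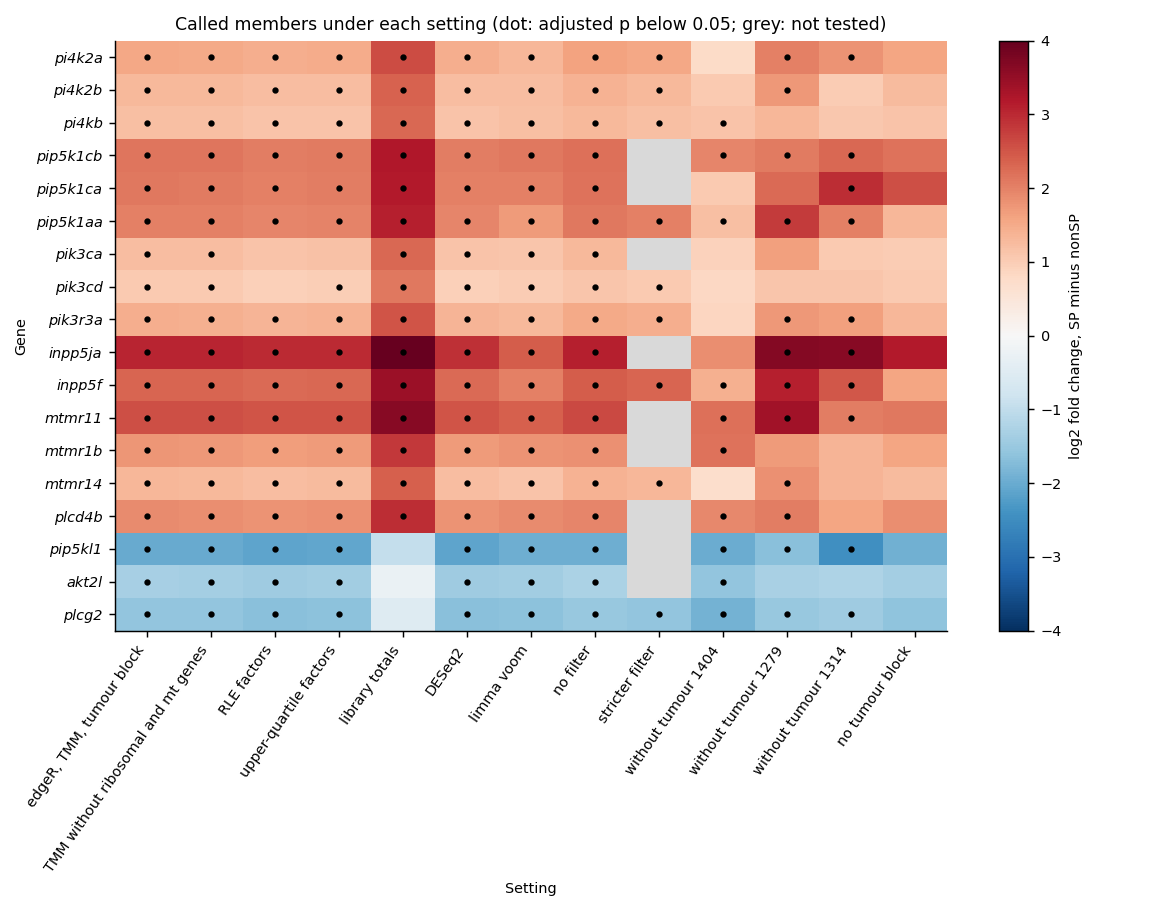
Log2 fold change, SP minus nonSP (colour), of 18 members past the threshold (y axis) under the main model and 12 other settings (x axis), with a dot where the adjusted p is below 0.05 and grey where the gene was not tested. Signs agree across columns for all 18 genes, the dots vanish without the tumour block, and the 3 genes that fell lose their dots with library totals.

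Lists of genes that act beside the members are read against the shares of all tested genes, of which 13% rose and 9.4% fell. Of 28 further phosphoinositide enzymes and transfer proteins found in the files 27 were tested, 6 rose (22.2%) and 0 fell, with a median log2 fold change of 0.82. synj1, a PIP2 phosphatase gene of endocytosis, went from 6.06, 11.7 and 3.02 CPM up to 16.1, 33.3 and 14 CPM and rose by 1.71 ± 0.37 (edgeR adjusted p = 0.00249). ocrl, the 5-phosphatase gene mutated in Lowe syndrome, rose by 1.70 ± 0.41, and cds1, whose product makes the CDP-diacylglycerol needed for phosphatidylinositol synthesis, by 1.85 ± 0.51. Below phospholipase C, 7 of 42 tested genes of the IP3 and diacylglycerol arm rose (16.7%, near the share of all genes) and 0 fell (median 0.30). The diacylglycerol kinase gene dgkzb, whose product ends diacylglycerol signals in lymphocytes, went from 37.5, 13.9 and 6.80 CPM to 280, 36.8 and 29.1 CPM (2.14 ± 0.41, edgeR adjusted p = 0.000884). dgkaa, another such kinase gene, rose by 1.87 ± 0.46 and prkcdb, a protein kinase C delta gene, by 2.30 ± 0.46. In edgeR, ocrl did not pass without tumour 1314 (1.24, adjusted p = 0.0915), nor cds1 without 1404 (1.25, 0.18) or 1279 (1.71, 0.0511).

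Of 29 tested regulators and targets of AKT, 7 rose (24.1%) and 2 fell (6.9%, median 0.40). sgk2a, a relative of AKT, had 155, 48 and 59 counts in SP, with 6, 1 and 2 counts for nonSP (edgeR adjusted p = 0.000636). foxo1a, a transcription factor gene whose product AKT holds out of the nucleus, rose by 1.72 ± 0.40. badb, a pro-apoptotic gene whose mammalian product AKT phosphorylates, stood at 62.7, 33.0 and 13.4 CPM in nonSP and 27.5, 8.97 and 2.11 CPM in SP. It fell, with a log2 fold change of -1.90 ± 0.39 (edgeR adjusted p = 0.00158), and was at -0.83 with library totals (0.0672). Of 26 tested adapters and kinases upstream of PI3K, 4 rose (15.4%, near the share of all genes) and 0 fell (median 0.17). These included sos2, a Ras exchange factor gene (1.36 ± 0.41), frs2a, a docking protein gene (1.46 ± 0.45), and irs2b, an insulin receptor substrate gene (1.25 ± 0.40). In edgeR, foxo1a did not pass without tumour 1314 (1.32, adjusted p = 0.067), sos2 without 1404 (0.72, 0.18) or 1314 (1.48, 0.0535), irs2b without 1404 (1.1, 0.1) or 1314 (0.94, 0.293), and frs2a with any tumour left out (1.0, 0.146 without 1404, 1.82, 0.0516 without 1279 and 1.48, 0.0727 without 1314).

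The tables also held 11 rows of the same families under capital-letter symbols, which the symbol rule does not take. Of these 6 were tested and 2 rose. PIK3C2G, a class II PI3K gene, had 242, 156 and 21 counts in SP, with 6, 21 and 2 counts for nonSP (edgeR adjusted p = 0.00957). PIK3R6 (2 of 2), a regulatory subunit gene of p110-gamma, had 341, 20 and 112 counts in SP, with 64, 3 and 16 counts for nonSP (edgeR adjusted p = 0.0357). AKT1 stood at -0.26 ± 0.47, INPP1, an inositol phosphate phosphatase gene, at 0.89 ± 0.38 (edgeR adjusted p = 0.0932) and MTMR4 at 0.66 ± 0.38. PLCB2 had 26, 0 and 23 counts in SP, with 30, 0 and 43 counts for nonSP. By gene spans in the RefSeq table of GRCz12tu, a later build than the authors', 4 of the 19 called members overlap another gene. plcd4b overlaps the protein-coding gene znf142, and pip5k1cb the protein-coding gene LOC141379226 and long non-coding RNA genes. inpp5ja and mtmr1b each overlap a long non-coding RNA gene. The counts of these members may hold reads of the overlapping genes.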

How the data were processed

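The authors deposited raw counts per gene symbol, 1 table per library, with 29095 symbols. GRCz10, edgeR 3.20.7, DESeq 1.30.0, STAR 2.5.1b, featureCounts 1.28.1 and Cufflinks 2.2.1 stand in the submitters' processing notes, without roles. No source used here states the annotation or how strand was handled, so reads of overlapping or antisense genes and of near-identical copies cannot be told apart. Groups and tumour numbers come from the titles. Both fractions of a number come from 1 tumour by the design text, and deviations from the group means correlated at 0.753, 0.839 and 0.818 within tumours and at -0.485 to -0.274 between them.

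The counts were fitted with edgeR 4.0.16 (R 4.3.3). filterByExpr by group (minimum count 10, minimum total 15) kept 15770 genes, holding at least 99.81% of each library's counts. TMM factors were 0.587 to 0.817 in nonSP and 1.21 to 1.76 in SP. The model (glmQLFit robust, tumour as block) was tested with glmQLFTest and adjusted by Benjamini-Hochberg over all tested genes. SE is the size of the log2 fold change over the square root of F, and leans on the dispersion shared between genes (23.2 prior degrees of freedom). A prior count of 2 was added for the log2 CPM behind each tumour's ratio. DESeq2 1.42.0, limma 3.58.1 (voom) and the other settings are in the closing section. The model was tested on simulated data.

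Members, classes and gene lists were chosen with earlier results of these data known. Named are every called member, the member with the most counts in each class, the copy pair with the widest gap in log2 fold change, a fixed set of genes known from PI3K and phospholipase C signalling, and up to 3 called genes per pathway list. Other members named beside them were chosen after their values were seen. So were the named markers itga2b, mpl, neb, ttna, ttnb, myhz2, mylpfa, acta1b, tnnt3a, ckma, lum, dcn, col1a1b, col1a1a, col1a2, col5a1, pdgfra, pax5, lck, itk and swap70a. Marker and pathway lists are described by counts alone. Some members are counted in the totals but not reported here or drawn in the figures.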

Additional observations from a re-analysis of the deposited data

How the results depend on the processing

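The main model gave 16 members higher and 3 lower. The number higher was 13 with RLE and 14 with upper-quartile factors, 16 with TMM factors set without ribosomal protein and mitochondrial genes, 18 without a filter, 17 in DESeq2 and 17 in limma voom with sample weights. It was 43 with library totals and 10 with the stricter filter (10 counts in at least 3 libraries and an average log2 CPM of 3), which tested 34 members. Leaving out each tumour gave 8 to 10 higher and 2 to 5 lower. The number lower was 5 with RLE, upper-quartile factors and limma voom, 7 in DESeq2, 7 at an adjusted p of 0.1 and 0 with library totals. Shares of all tested genes called are given above for the main model and library totals. For the other settings with calls they were not computed, so those counts show nothing particular to the members. The members' median log2 fold change stood above that of all tested genes in every setting, by 0.20 (no filter) to 0.38 (without tumour 1279). Without the tumour pairing (no block) 0 members were higher and 0 lower in edgeR. The same model called 0 of all tested genes, with 1251 at an unadjusted p below 0.05. Of the called members, 4 that rose (pip5k1aa, pip5k1cb, inpp5f and mtmr11) and 2 that fell (plcg2 and pip5kl1) kept their call with each tumour left out in turn. pip5k1aa and inpp5f did so in every alternative except the model without the block. pip5k1cb and mtmr11 did so in the same alternatives apart from the stricter filter, which left them untested. Estimates that changed sign were all of uncalled genes. With library totals 18 of the 66 tested members turned from negative to positive, among them pik3c2b (0.82), pip5k2 (0.50), plcg1 (0.0497), pik3ip1 (0.37), inpp5d (0.23) and inpp5jb (0.81). Every other setting changed the sign of 0 to 6 members. pik3cg was -0.0805 with RLE, -0.0804 in DESeq2, -0.0585 with upper-quartile factors, -0.0074 with the reduced TMM set, -0.0008 with the stricter filter, -0.0705 in limma voom and -0.27 to 0.278 with a tumour left out. pik3c2b ranged from -0.7136 to 0.0555 with a tumour left out, and pip5k1ab was -0.0002 with RLE, -0.0145 in DESeq2 and -0.34 to 0.267 with a tumour left out. The causes of these changes were not tested. Counting error is widest for members with few counts, such as inpp5ja and the phospholipase C delta genes.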
